A study of Mus musculus with 28 samples.

Results

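The 6 scavenger receptor genes *Msr1*, *Cd36*, *Cd68*, *Scarb1*, *Stab1* and *Lrp1* were followed across hippocampal microglia of WT and 5xFAD mice that were colonized, germ-free or treated with antibiotics. They were taken by symbol from the count table, which holds 48587 genes, and all 6 were among the 15298 genes that passed the filter on low counts. Microglia were gated as CD11b+ CD45low cells, with lymphocytes, granulocytes and Ly6C+ cells removed by a dump channel, and the RNA of each mouse was sequenced as 1 library. The 28 mice comprised 14 WT animals (5 SPF, 4 GF and 5 ABX) and 14 animals with the transgene (3 SPF, 5 GF and 6 ABX). SPF stands for specific pathogen free and thus colonized, GF for germ-free, and ABX for SPF mice given a cocktail of antibiotics in the drinking water over the last 8 weeks of life. All mice were males on a C57BL/6J background, 16 weeks old. The heterozygous 5xFAD mice carry human mutant APP and PS1 under the neuronal Thy-1 promoter, and WT mice were their littermates without it. GF mice came from Bern and the other mice from Freiburg, so germ-free housing and the site of breeding cannot be told apart.

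Scavenger receptors are structurally unrelated surface and endosomal proteins that share an appetite for modified lipoproteins, lipids, dying cells and protein aggregates. Macrophages, including microglia, use them to bind and engulf such material, which is then passed to lysosomes, and several of them bind amyloid-β. *Msr1* encodes the class A macrophage scavenger receptor, *Cd36* and *Scarb1* encode class B receptors for fatty acids, oxidized LDL and HDL, and *Cd68* encodes a heavily glycosylated protein of late endosomes and lysosomes that is widely used as a marker of phagocytic activity. *Stab1* encodes stabilin-1, which takes up modified LDL and matrix fragments, and *Lrp1* encodes a very large endocytic receptor of the LDL receptor family that clears apolipoprotein E and many other ligands.

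The 6 genes lie on the minus strand of 5 mouse chromosomes (build GRCm38). *Msr1* spans chr8:39581685-39642673, *Cd36* spans chr5:17781690-17888801 and *Scarb1* lies on the same chromosome at chr5:125277087-125341094. *Cd68* is the shortest at chr11:69664213-69666153, *Stab1* spans chr14:31139013-31168641 and *Lrp1* spans chr10:127538161-127621148. Their summed exon lengths ran from 1257 bases for *Cd68* to 17717 bases for *Lrp1*, so levels are compared between genes per kilobase. *Stab1* shares 112 exon bases, 1.09% of its exons, with *Nt5dc2* on the opposite strand. The libraries do not mark strand, so reads from these bases cannot be assigned to one of the pair.

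RefSeq (GRCm38.p6) gave the 250 bases upstream of the transcription start for 4 of the 6 genes, and 3 of these stretches are shown because their genes behaved differently across the groups. *Cd68* was higher in 5xFAD mice of every condition, *Cd36* was close to 0 in most colonized WT mice, and *Stab1* fell in germ-free 5xFAD mice. Each sequence is given 5′ to 3′ on the strand of the gene and ends at the base before the start. They lie at chr11:69666171-69666420 for *Cd68*, chr5:17835897-17836146 for *Cd36* and chr14:31168642-31168891 for *Stab1*. The RefSeq start used for *Cd36* lies inside the bounds of the gene given above, so any start further upstream is not covered. Capitals mark matches to 4 short motifs searched on both strands.
Cd68: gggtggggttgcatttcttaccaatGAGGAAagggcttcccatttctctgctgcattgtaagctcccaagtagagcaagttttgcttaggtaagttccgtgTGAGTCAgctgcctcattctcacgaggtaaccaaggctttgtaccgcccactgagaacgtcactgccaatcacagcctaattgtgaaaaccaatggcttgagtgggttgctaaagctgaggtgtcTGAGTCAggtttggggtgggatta
Cd36: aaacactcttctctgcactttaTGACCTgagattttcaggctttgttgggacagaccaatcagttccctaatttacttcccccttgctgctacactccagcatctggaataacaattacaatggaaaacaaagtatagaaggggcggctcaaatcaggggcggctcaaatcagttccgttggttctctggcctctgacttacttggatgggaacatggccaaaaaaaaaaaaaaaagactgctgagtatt
Stab1: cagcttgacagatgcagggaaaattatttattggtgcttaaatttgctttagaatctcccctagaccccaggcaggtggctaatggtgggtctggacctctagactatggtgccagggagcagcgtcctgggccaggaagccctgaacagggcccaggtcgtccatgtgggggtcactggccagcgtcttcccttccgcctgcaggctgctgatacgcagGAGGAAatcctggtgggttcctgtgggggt

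In *Cd68* the capitals mark 1 copy of GAGGAA, the core bound by the myeloid factor PU.1, 225 bases before the start, and 2 copies of TGAGTCA, the AP-1 motif, 149 and 24 bases before it. *Stab1* holds GAGGAA 30 bases before the start, and *Cd36* holds TGACCT, the reverse complement of the nuclear receptor sequence AGGTCA, 228 bases before it. The *Lrp1* promoter, which lies at chr10:127621149-127621398 and is not printed, held none of these motifs, and the E-box CACGTG was in none of the 4 stretches. Of 32851 promoter windows of the same length, 23.3% held GAGGAA, 4.46% held TGAGTCA, 6.02% held CACGTG and 14.0% held AGGTCA. At least 2 copies of TGAGTCA, as in *Cd68*, were found in 0.167% of the windows. A match of letters is a description and not a binding site, and the motifs were chosen after the sequences had been read.

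Library totals ranged from 14441610 to 29977395 reads with a median of 19499296.5. The 8 microglial markers (among them *P2ry12* and *Tmem119*) summed to between 43526 and 62245 CPM (reads of a gene scaled to a common library total) in every library. This sum was lower in all 14 5xFAD mice (43526 to 53748 CPM) than in all 14 WT mice (55235 to 62245 CPM). Markers of border-associated macrophages, the macrophages of meninges and perivascular spaces, differed between the groups. The sum of 9 such genes lay between 4.41 and 9.23 CPM in SPF WT and between 3.88 and 7.51 CPM in ABX WT mice. It lay between 11.5 and 48.6 CPM in GF WT, between 22.8 and 39.2 CPM in SPF 5xFAD, between 18.3 and 89.4 CPM in GF 5xFAD and between 38.4 and 267 CPM in ABX 5xFAD mice. Of these markers *Cd163* was at 0 in all 5 SPF WT and all 5 ABX WT mice, while *Mrc1* was at 3.18 to 7.54 CPM in SPF WT and at 3.21 to 5.17 CPM in ABX WT mice. Markers of neutrophils (7 genes) summed to between 61.1 and 263 CPM in the 3 SPF 5xFAD mice and to 144 CPM in mouse FAD_ABX_1151, and to less than 0.78 CPM in every other mouse. Monocyte markers (6 genes) summed to between 6.76 and 8.57 CPM in SPF WT and between 16.4 and 39.0 CPM in SPF 5xFAD mice, to between 3.75 and 9.32 CPM in ABX WT and between 14.4 and 52.0 CPM in ABX 5xFAD mice, and overlapped between genotypes in GF mice (3.72 to 16.9 and 6.02 to 24.9 CPM). In SPF mice most of the rise was that of *Chil3*, with a median of 0 CPM in WT and 15.1 CPM in 5xFAD mice. The medians of *Ccr2* were 6.33 and 8.46 CPM there, and those of *Plac8* and *Vcan* were lower in 5xFAD mice. In ABX mice the medians of *Ccr2* were 8.01 CPM in WT and 16.8 CPM in 5xFAD animals, and that of *Chil3* was 0 in both. One GF 5xFAD animal, mouse FAD_GF_201, is a 5xFAD mouse by title and genotype and a WT mouse by its description, and receptor calls that change when it is counted as WT are given with both values. Its transcripts ran with the title: all 5 GF 5xFAD mice, this one included, had at least 305 CPM of *Clec7a*, 5321 CPM of *Apoe* and 635 CPM of *Lpl*, where no WT mouse exceeded 37.8, 955 and 78.4 CPM. Library descriptions in the labels are numbered in 3 styles. Style 1 covers SPF WT and ABX WT mice, style 2 covers SPF 5xFAD mice together with mouse FAD_ABX_1151, and style 3 covers the 5 remaining ABX 5xFAD mice and every GF mouse. The genotype comparison in GF mice and that of ABX with SPF WT mice lie within 1 style, as does that of ABX with GF 5xFAD mice without mouse FAD_ABX_1151. In ABX against SPF 5xFAD mice this animal alone shares a style with the other group, and in all other comparisons style and group cannot be told apart. In sorted bulk samples, fewer cells of a type and less RNA per cell cannot be told apart.

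Levels per kilobase differed widely among the 6 genes. *Cd68* stood highest with a median over 28 mice of 1011 CPM per kb (623 to 2114), followed by *Lrp1* with 65.2 (43.1 to 80.1), *Stab1* with 51.8 (25.9 to 72.2) and *Scarb1* with 11.6 (5.34 to 20.4) CPM per kb. *Msr1* had a median of 0.641 (0.0643 to 2.32) and *Cd36* of 0.513 (0 to 5.15) CPM per kb. The 2 genes with the lowest levels thus had the widest relative range between mice, and *Lrp1* had the narrowest. In an F test over the 6 groups with edgeR's quasi-likelihood method, 5 of the 6 receptors passed an adjusted p of 0.05, beside 33.2% of all genes. *Lrp1* did not pass (adjusted p = 0.0752, edgeR quasi-likelihood test), but it did with DESeq2, with voomWithQualityWeights and with gene length offsets.

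**Figure D1:**
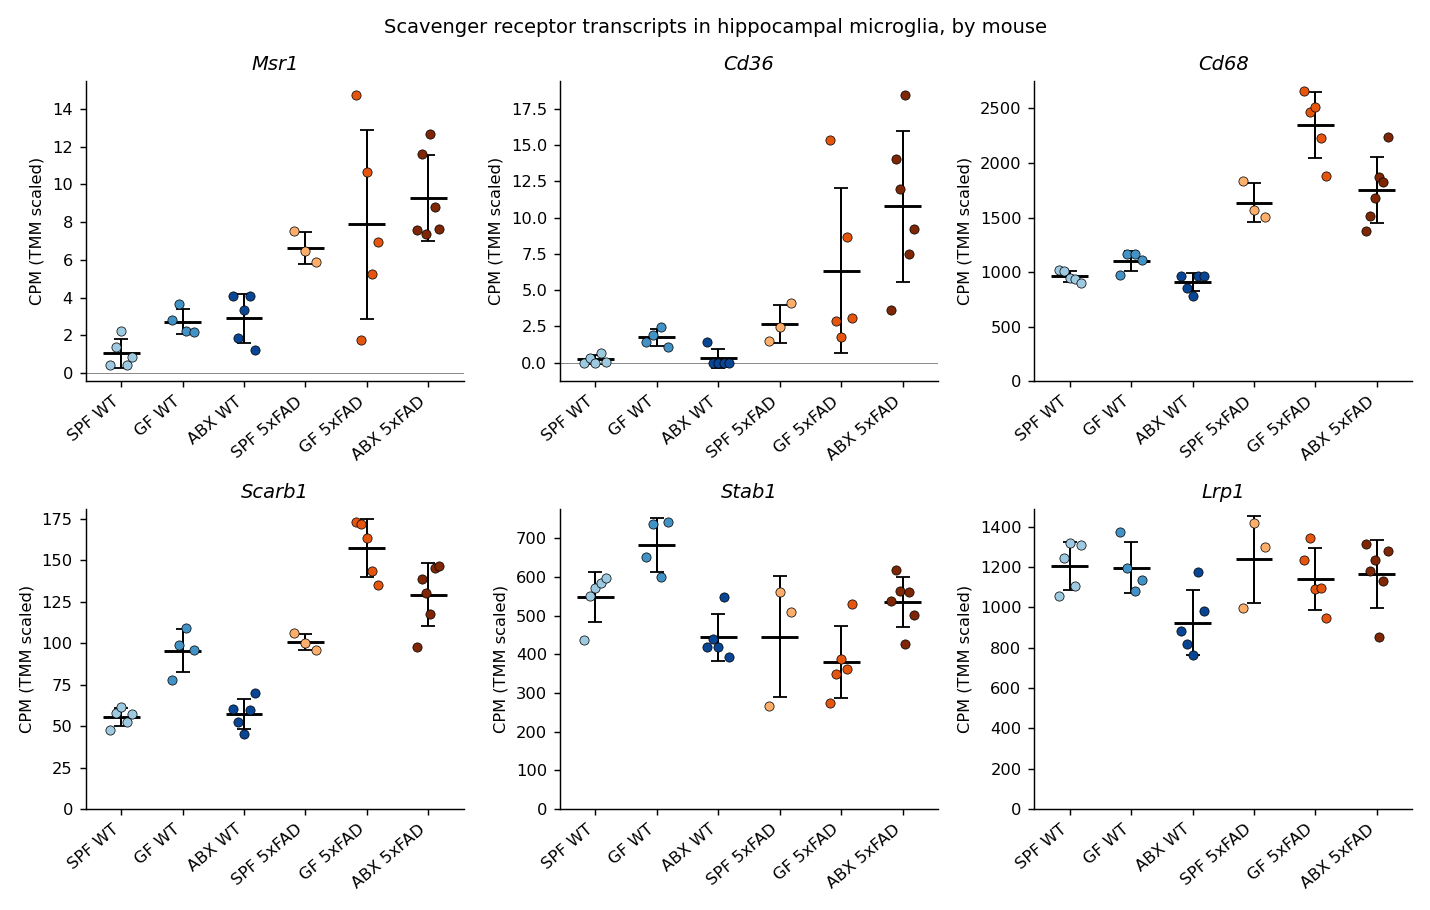
Level of each receptor transcript in CPM scaled by TMM (vertical axis, linear) for the 6 groups (horizontal axis). Each point is 1 mouse, the long bar is the group mean and the whiskers are 1 SD. All 14 mice of the 5xFAD groups sit above all WT mice of their own condition for *Cd68* and *Scarb1*, while *Lrp1* overlaps between genotypes in every condition.

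The first question was how the receptors differed between 5xFAD and WT mice in each colonization state. In SPF mice 4 of the 6 receptors were higher in 5xFAD mice (*Msr1*, *Cd36*, *Cd68* and *Scarb1*) and none was lower, where 4.57% of all genes changed in either direction. In GF mice *Msr1*, *Cd68* and *Scarb1* were higher and *Stab1* was lower, where 15.6% of all genes changed. In ABX mice *Msr1*, *Cd36*, *Cd68*, *Scarb1* and *Lrp1* were higher, where 14.4% of all genes changed. The median log2 fold change of the 6 receptors was 0.81, 0.91 and 1.06 in SPF, GF and ABX mice, against -0.03, -0.03 and -0.01 over all genes tested. P-values here measure the spread between these mice.

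*Cd68*, the lysosomal glycoprotein, was the most abundant receptor and rose in all 3 conditions. The 5 SPF WT mice had 1018, 1007, 946, 939 and 898 CPM, and the 3 SPF 5xFAD mice had 1838, 1566 and 1508 CPM. The groups did not overlap, and the log2 fold change was 0.77 (SE 0.116, adjusted p = 3.94e-05, edgeR quasi-likelihood test). GF WT mice had 969, 1164, 1165 and 1115 CPM, and GF 5xFAD mice had 2657, 2466, 2509, 2228 and 1883 CPM. Every GF 5xFAD mouse thus exceeded every GF WT mouse, with a log2 difference of 1.09 (SE 0.111, adjusted p = 2.23e-08, edgeR). ABX WT mice had 967, 859, 783, 968 and 962 CPM, and the 6 ABX 5xFAD mice ranged from 1376.5 over a median of 1749 to 2236 CPM. These groups were also apart, with a log2 difference of 0.95 (SE 0.0997, adjusted p = 4.29e-08, edgeR).

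*Scarb1*, the HDL receptor, rose with genotype in all 3 conditions. SPF WT mice had 47.4, 58.2, 61.7, 52.6 and 57.4 CPM, and SPF 5xFAD mice had 106, 100.2 and 96.1 CPM. GF WT mice had 77.9, 99.1, 109 and 96.1 CPM, and GF 5xFAD mice had 173, 172, 164, 144 and 135 CPM. ABX WT mice had 60.2, 52.5, 45.4, 59.5 and 69.8 CPM, and ABX 5xFAD mice ranged from 97.7 over 135 to 146 CPM. No WT mouse reached the level of a 5xFAD mouse of its own condition. The log2 fold changes were 0.86 (SE 0.133, adjusted p = 5.56e-05) in SPF, 0.72 (SE 0.126, adjusted p = 0.00012) in GF and 1.17 (SE 0.115, adjusted p = 1.31e-08) in ABX mice, all from edgeR.

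*Msr1*, the class A receptor, was scarce in WT microglia and higher in 5xFAD mice. In SPF WT mice it was at 0.408, 1.38, 2.23, 0.431 and 0.842 CPM, and in SPF 5xFAD mice at 7.55, 6.45 and 5.86 CPM, which was 6.30-fold higher with no overlap (log2 fold change 2.66, SE 0.491, adjusted p = 6e-04, edgeR). ABX WT mice had 4.06, 1.85, 3.33, 4.07 and 1.25 CPM, and ABX 5xFAD mice ranged from 7.39 over 8.21 to 12.7 CPM, again without overlap (log2 fold change 1.68, SE 0.417, adjusted p = 0.00602, edgeR). The GF groups overlapped. GF WT mice had 2.82, 3.66, 2.25 and 2.19 CPM, and GF 5xFAD mice had 14.7, 1.77, 10.7, 5.24 and 6.96 CPM, so that mouse FAD_GF_182 lay below all GF WT mice. The log2 fold change was 1.52 (SE 0.462, adjusted p = 0.0224, edgeR). This call was lost with voomWithQualityWeights (adjusted p = 0.141), with the GF groups fitted alone (edgeR adjusted p = 0.0544) and with mouse FAD_GF_201 as a WT mouse (edgeR adjusted p = 0.0899). It was also lost without mouse WT_GF_199, WT_GF_230 or WT_GF_231 (edgeR adjusted p = 0.0542, 0.0634 and 0.0682) and without mouse FAD_GF_181 or FAD_GF_184 (edgeR adjusted p = 0.0884 and 0.0502). The exact two-sided permutation test of log2 CPM did not reach 0.05 either (p = 0.0952, with 0.00794 as the smallest possible).

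*Cd36*, the fatty acid and oxidized LDL receptor, was at or near 0 in colonized WT mice. SPF WT mice had 0, 0.345, 0, 0.689 and 0.0468 CPM, and SPF 5xFAD mice had 1.47, 2.46 and 4.09 CPM. The groups were apart (log2 fold change 3.54, SE 0.979, adjusted p = 0.0297, edgeR), yet DESeq2 gave an adjusted p of 0.0595. Leaving out mouse WT_SPF_912, WT_SPF_925, WT_SPF_926 or WT_SPF_936 gave edgeR adjusted p-values of 0.0768, 0.0512, 0.073 and 0.0784, and leaving out mouse FAD_SPF_1146 or FAD_SPF_1148 gave 0.0592 and 0.141. Without mouse WT_SPF_928 the log2 fold change was 4.56 (adjusted p = 0.0137, edgeR).

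In ABX WT mice *Cd36* was at 0 in 4 of 5 animals and at 1.43 CPM in mouse WT_ABX_909, while ABX 5xFAD mice ranged from 3.61 over 10.6 to 18.5 CPM. This was the largest fold change of the 6 receptors in the genotype comparisons, with a log2 value of 5.27 (SE 0.937, adjusted p = 0.000183, edgeR) or 38.7-fold. The value rests on mouse WT_ABX_909. Without it all ABX WT mice were at 0, and the ABX 5xFAD mean of 10.8 CPM was at least 290.3-fold higher than the 0.0372 CPM that 3 counts over the remaining group would give. GF WT mice had 1.43, 1.92, 2.47 and 1.095 CPM, and GF 5xFAD mice had 15.3, 2.86, 1.76, 8.68 and 3.06 CPM. These groups overlapped through mouse FAD_GF_184, and the log2 fold change of 1.87 (SE 0.844) did not pass the test (adjusted p = 0.142, edgeR). A value of 0 allowed up to between 0.0989 and 0.198 CPM in a single library, the level of 3 counts, which covers counting error only.

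The macrophage marker sum was higher in every SPF and ABX 5xFAD mouse than in WT mice of the same condition, where *Msr1*, *Cd36*, *Cd68* and *Scarb1* rose. In GF mice, where *Cd68* and *Scarb1* rose as well and the call of *Msr1* was lost in several alternatives, the sum overlapped between genotypes. Its medians were 37.5 CPM in WT and 36.5 CPM in 5xFAD mice. Single markers moved both ways there. The median of *Mrc1* was 11.6 CPM in WT and 5.90 CPM in 5xFAD mice, and that of *Cbr2* was lower too. *F13a1* (2.79 and 7.12 CPM), *Siglec1* (2.64 and 7.88 CPM) and the other markers had higher medians in 5xFAD mice. Among ABX 5xFAD mice *Cd36* followed the marker sum but for the top pair, with 3.61, 7.48, 9.19, 11.9, 18.5 and 14.0 CPM of *Cd36* at sums of 38.4, 94.8, 135, 205, 250.4 and 267 CPM. The order in GF 5xFAD mice was mixed. Mouse FAD_GF_181 had the highest *Cd36* (15.3 CPM) with the next to highest sum (72.1 CPM). Mouse FAD_GF_201 had the highest sum of this group (89.4 CPM) with 3.06 CPM of *Cd36*, and mouse FAD_GF_185 had 8.68 CPM of *Cd36* at a sum of 20.2 CPM. The part of macrophage, monocyte or neutrophil transcripts, and of the lower microglial marker sum, in the genotype differences of the 6 receptors was not tested.

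**Figure D2:**
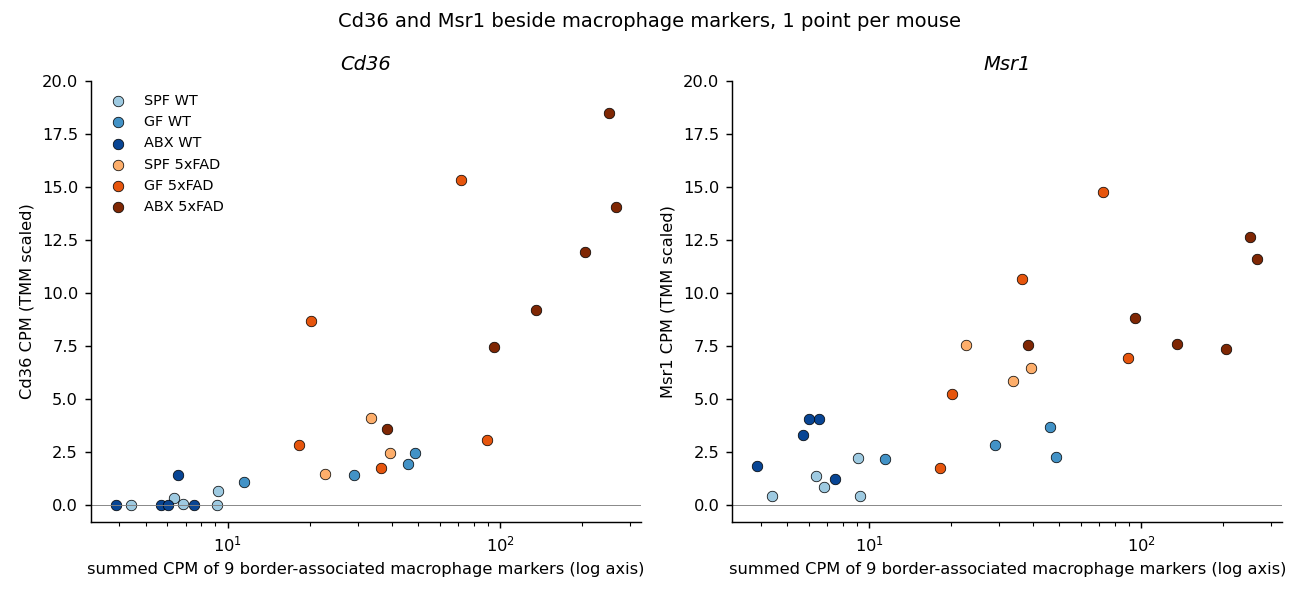
*Cd36* (left) and *Msr1* (right) in CPM scaled by TMM against the summed CPM of 9 border-associated macrophage markers on a log axis, with 1 point per mouse and colours for the 6 groups. The highest marker sum (267 CPM) and the highest *Cd36* level (18.5 CPM) are those of ABX 5xFAD mice, while GF 5xFAD mice reach *Cd36* levels of 8.68 and 15.3 CPM at sums of 20.2 and 72.1 CPM.

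*Stab1*, the multifunctional receptor stabilin-1, was the 1 receptor of the 6 that was lower in 5xFAD mice, and this call was made in GF mice. GF WT mice had 652, 736, 599 and 743 CPM, and GF 5xFAD mice had 275, 348, 389, 361 and 529 CPM. The groups were apart, with a log2 difference of -0.84 (SE 0.164, adjusted p = 0.000445, edgeR), and the call held in every alternative fit, gene length offsets included (-0.71, adjusted p = 0.00117, edgeR). The sum of 6 endothelial markers was also lower in GF 5xFAD than in GF WT mice, at 9.42 to 21.4 against 28.6 to 35.5 CPM. That of 6 astrocyte markers was lower as well, at 154.8 to 189 against 228.5 to 298 CPM. Most of the first sum was *Pecam1*, with a median of 30.1 CPM in GF WT and 16.2 CPM in GF 5xFAD mice. Most of the second was *Slc1a3*, with medians of 253 and 166 CPM. The medians of *Flt1* (0.235 and 1.21 CPM), *Gfap* (0.0769 and 2.42 CPM) and *Aldoc* (0.16 and 1.58 CPM) were higher in GF 5xFAD mice. Those of *Cdh5*, *Aqp4* and *Slc1a2* were lower. The part of these transcripts in the *Stab1* difference was not tested. In SPF mice WT animals had 438, 550.5, 571, 583 and 598 CPM and 5xFAD animals had 267, 561 and 508 CPM. These overlapped and the log2 fold change of -0.30 did not pass (SE 0.181, adjusted p = 0.519, edgeR). ABX WT mice had 419, 439.7, 419, 547 and 392 CPM, and ABX 5xFAD mice ranged from 427 over 549.7 to 618 CPM. Here the log2 fold change was 0.27 (SE 0.149, adjusted p = 0.242, edgeR).

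The effect of genotype on *Stab1* differed between ABX and GF mice. The interaction, the genotype difference in ABX minus that in GF mice, was 1.11 on the log2 scale (SE 0.222, adjusted p = 0.0112, edgeR), and its adjusted p ranged from 0.000216 to 0.0286 over the alternatives. Of the 6 receptors *Stab1* alone passed this test in the edgeR fit of all mice, where 1.76% of all genes did. *Cd36* had an interaction of 3.41 (SE 1.19, adjusted p = 0.138, edgeR), which passed with voomWithQualityWeights (adjusted p = 0.0326) and without mouse WT_ABX_909 (edgeR adjusted p = 0.0169). The genotype effect in GF against SPF mice differed for 0 of the 6 receptors and 0% of all genes by edgeR, although 1304 genes and *Stab1* among the receptors had an unadjusted p under 0.05. DESeq2 called 25 genes and voomWithQualityWeights 116, none of them a receptor of the 6. For ABX against SPF mice edgeR called 0 of the 6 receptors and 0% of all genes, with 1032 genes and again *Stab1* under an unadjusted p of 0.05, and DESeq2 called 1 and voomWithQualityWeights 14 genes, none a receptor of the 6. Differences between the genotype effects in SPF and in GF or ABX mice were thus not detected for any of the receptors.

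*Lrp1*, the endocytic LDL receptor relative, differed least. SPF WT mice had 1056, 1246, 1318, 1108 and 1309 CPM and SPF 5xFAD mice had 999, 1419 and 1299 CPM, a log2 difference of 0.04 (SE 0.138, adjusted p = 0.963, edgeR). GF WT mice had 1376, 1196, 1083 and 1138 CPM and GF 5xFAD mice had 1238, 1346, 1093, 1094 and 945 CPM, a log2 difference of -0.07 (SE 0.127, adjusted p = 0.784, edgeR). Both pairs of groups overlapped over most of their range. ABX WT mice had 883, 820.4, 764, 1174 and 983 CPM, and ABX 5xFAD mice ranged from 854 over 1208 to 1317 CPM. The log2 fold change of 0.33 (SE 0.115) passed narrowly (adjusted p = 0.0498, edgeR). It no longer passed in 22 of 39 alternatives, with library size as the only scaling (adjusted p = 0.134, edgeR), with the ABX groups fitted alone (adjusted p = 0.0927, edgeR), with mouse FAD_GF_201 as a WT mouse (adjusted p = 0.0531, edgeR) and without mice FAD_ABX_1151 and FAD_ABX_1482 (adjusted p = 0.191, edgeR) among them. Leaving out 1 mouse ended the call for 17 of 28 mice, which were all SPF WT mice, mice WT_GF_229 and WT_GF_231, mice WT_ABX_909, WT_ABX_910, WT_ABX_911 and WT_ABX_932, mouse FAD_SPF_1148 and every ABX 5xFAD mouse but FAD_ABX_1455. The edgeR adjusted p was then at most 0.151. With gene length offsets the log2 fold change was 0.47 (adjusted p = 0.00305, edgeR).

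**Figure D3:**
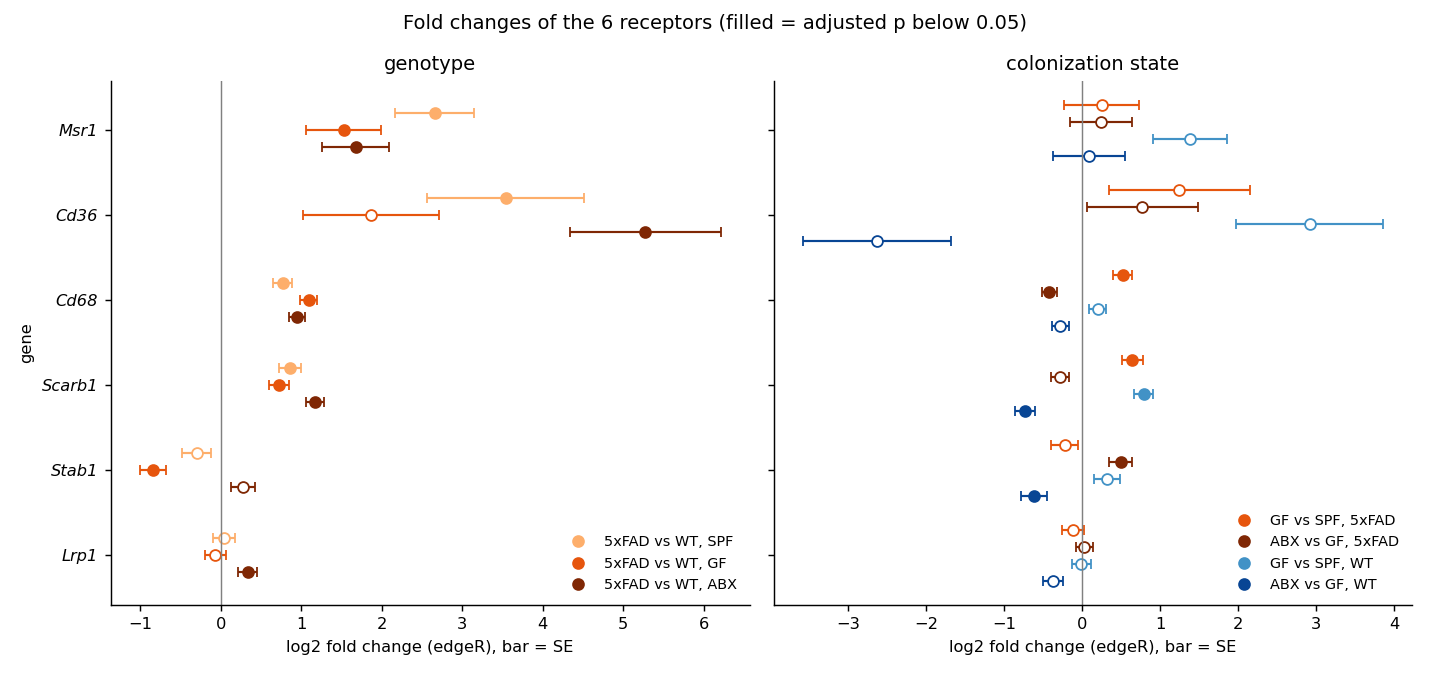
Log2 fold change of each receptor (horizontal axis) with its SE as bar for 5xFAD against WT mice in 3 conditions (left) and for colonization states within a genotype (right), from edgeR. Filled points passed an adjusted p of 0.05. *Cd68* and *Scarb1* have filled points to the right of 0 in all 3 genotype comparisons, *Stab1* has a filled point at -0.84 in GF mice, and the points of *Cd36* have the widest bars.

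The second question was whether the lack of microbiota changed the receptors within 5xFAD mice. GF 5xFAD mice had higher *Cd68* and *Scarb1* than SPF 5xFAD mice, 2 of 6 receptors, where 12.8% of all genes changed. All 5 GF animals exceeded the 3 SPF animals for both genes. *Scarb1* rose from a mean of 100.8 ± 5.06 (SD, n = 3) to 157.5 ± 17.3 CPM (SD, n = 5), a log2 difference of 0.64 (SE 0.138, adjusted p = 0.00372, edgeR) that was 0.86 with gene length offsets (adjusted p = 0.00238, edgeR). *Cd68* rose from 1637 ± 176 to 2348 ± 302 CPM (SD, n = 3 and 5), a log2 difference of 0.52 (SE 0.12, adjusted p = 0.00568, edgeR). The *Cd68* difference was lost without mouse FAD_SPF_1148 (adjusted p = 0.0628, edgeR) and with gene length offsets (log2 fold change 0.15, adjusted p = 0.286, edgeR). Libraries differed in how strongly expression depended on gene length, and at the short length of *Cd68* this dependence amounted to a median shift of 0.30 in GF and -0.15 in SPF 5xFAD mice on the log2 scale.

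The other receptors did not pass between GF and SPF 5xFAD mice. *Msr1* had a log2 fold change of 0.25 (adjusted p = 0.795, edgeR), *Cd36* of 1.24 (adjusted p = 0.412, edgeR) and *Lrp1* of -0.12 (adjusted p = 0.649, edgeR). *Stab1* had -0.23 (adjusted p = 0.451, edgeR), which passed with voomWithQualityWeights (adjusted p = 0.0427) and was 0.05 with gene length offsets. The 5 GF values of *Msr1* spread from 1.77 to 14.7 CPM around the 3 SPF values of 5.86 to 7.55 CPM. SPF 5xFAD mice are the group with neutrophil transcripts, whose part in these comparisons was not tested.

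Antibiotics moved none of the receptors past the threshold in 5xFAD mice. Between ABX and SPF 5xFAD mice edgeR called 0 of the 6 receptors and 0% of all genes, with 1085 genes under an unadjusted p of 0.05, while DESeq2 called 8 and voomWithQualityWeights 134 genes. *Cd36* and *Scarb1* were under an unadjusted p of 0.05. *Cd36* had a log2 difference of 2.01 (SE 0.916, adjusted p = 0.666, edgeR) and was called by voomWithQualityWeights (adjusted p = 0.0449), and *Scarb1* had 0.36 (SE 0.133, adjusted p = 0.635, edgeR). DESeq2 called none of the 6. Of the 6 ABX 5xFAD mice, 5 exceeded all SPF 5xFAD mice for both genes, and mouse FAD_ABX_1151 did not, which shares with the SPF 5xFAD mice both neutrophil transcripts and the style of description. *Msr1* had a log2 fold change of 0.49, *Stab1* of 0.27, *Cd68* of 0.10 and *Lrp1* of -0.09, with adjusted p-values from 0.781 to 0.916 (edgeR).

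ABX and GF 5xFAD mice, which are compared over the same GF animals as above, differed in *Cd68* and *Stab1*, where 10.6% of all genes changed. *Cd68* was lower in ABX mice by a log2 value of -0.42 (SE 0.0975, adjusted p = 0.00678, edgeR), but this was lost with both groups fitted alone (adjusted p = 0.0879, edgeR) and with gene length offsets (-0.16, adjusted p = 0.173, edgeR). *Stab1* was higher in ABX mice, 535 ± 64.9 against 380.4 ± 93.1 CPM (SD, n = 6 and 5), with a log2 difference of 0.49 (SE 0.15, adjusted p = 0.0323, edgeR). This was lost with gene length offsets (0.34, adjusted p = 0.125, edgeR), with both groups fitted alone (adjusted p = 0.0685, edgeR) and without any of 8 single mice (mice FAD_GF_181, FAD_GF_182, FAD_GF_184 and FAD_GF_185, mice FAD_ABX_1151, FAD_ABX_1452, FAD_ABX_1453 and FAD_ABX_1460), for which the edgeR adjusted p was at most 0.0961. *Scarb1* had a log2 difference of -0.28 (SE 0.112, adjusted p = 0.0998, edgeR) and passed with gene length offsets (-0.41, adjusted p = 0.0484, edgeR). *Msr1*, *Cd36* and *Lrp1* had log2 fold changes of 0.24, 0.77 and 0.03 with edgeR adjusted p-values of 0.764, 0.542 and 0.914.

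In WT mice the clearest colonization effect was that on *Scarb1*. Its mean was 95.6 ± 13.1 CPM (SD, n = 4) in GF WT mice, 55.5 ± 5.57 CPM (SD, n = 5) in SPF WT mice and, in ABX WT mice, 57.5 ± 9.12 CPM (SD, n = 5), and the GF range lay above both others. Between GF and SPF WT mice the log2 fold change was 0.79 (SE 0.124, adjusted p = 0.00133, edgeR), and *Scarb1* was the 1 receptor called there, where 1.62% of all genes were. *Cd36* was apart as well, with GF WT mice at 1.095 to 2.47 and SPF WT mice at 0 to 0.689 CPM, and its log2 fold change of 2.92 (SE 0.947) did not pass (adjusted p = 0.105, edgeR). It passed with voomWithQualityWeights (adjusted p = 0.021), with both groups fitted alone (adjusted p = 0.0304, edgeR), with mouse FAD_GF_201 as a WT mouse (adjusted p = 0.0466, edgeR) and without mouse WT_ABX_909 (adjusted p = 0.0497, edgeR). *Msr1* had a log2 difference of 1.38 (SE 0.47, adjusted p = 0.12, edgeR), which passed with mouse FAD_GF_201 as a WT mouse (adjusted p = 0.0329, edgeR). *Stab1* was apart in these groups, with a log2 fold change of 0.32 (adjusted p = 0.334, edgeR) that passed with both groups fitted alone (adjusted p = 0.0382, edgeR). *Cd68* had 0.20 (adjusted p = 0.366, edgeR) and *Lrp1* had -0.01 (adjusted p = 0.985, edgeR).

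The macrophage marker sum was also higher in GF WT (median 37.5 CPM) than in SPF WT mice (median 6.83 CPM), and its part in the *Scarb1* and *Cd36* values was not tested. The 4 GF WT mice had *Scarb1* levels of 77.9, 96.1, 99.1 and 109 CPM at marker sums of 29.1, 11.5, 46.0 and 48.6 CPM.

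Between ABX and SPF WT mice edgeR called 0 of the 6 receptors and 0% of all genes, with 687 genes under an unadjusted p of 0.05, and DESeq2 called 2 genes and voomWithQualityWeights 0, none of them one of the 6. *Msr1* (log2 fold change 1.47, SE 0.45) and *Lrp1* (-0.38, SE 0.12) had an unadjusted p under 0.05 and an adjusted p of 1 (edgeR). *Cd36*, *Scarb1*, *Cd68* and *Stab1* had log2 fold changes of 0.28, 0.05, -0.08 and -0.31, all with an adjusted p of 1 (edgeR). Against GF WT mice, ABX WT mice were lower in *Scarb1* (log2 fold change -0.73, SE 0.124, adjusted p = 0.00156, edgeR) and *Stab1* (-0.62, SE 0.164, adjusted p = 0.0211, edgeR), 2 of 6 receptors, where 6.88% of all genes changed. Both genes had ranges that did not overlap. The *Stab1* call was lost without mouse WT_GF_229 or WT_GF_231 or mouse WT_ABX_909 or WT_ABX_911 (edgeR adjusted p = 0.0688, 0.0647, 0.0501 and 0.0561). *Cd36* had -2.64 (SE 0.952, adjusted p = 0.0905, edgeR) and *Lrp1* had -0.37 (SE 0.127, adjusted p = 0.0715, edgeR). *Cd36* passed with voomWithQualityWeights (adjusted p = 0.0233), with mouse FAD_GF_201 as a WT mouse (adjusted p = 0.0445, edgeR) and without mouse WT_ABX_909 (adjusted p = 0.00501, edgeR). *Lrp1* passed with DESeq2 (adjusted p = 0.0439), voomWithQualityWeights (adjusted p = 0.0168), both groups fitted alone (adjusted p = 0.0474, edgeR) and gene length offsets (adjusted p = 0.00733, edgeR). Without mouse WT_ABX_923 or mouse FAD_ABX_1455 it passed as well (adjusted p = 0.0213 and 0.0488, edgeR). *Cd68* and *Msr1* had -0.28 (adjusted p = 0.111, edgeR) and 0.09 (adjusted p = 0.942, edgeR), and *Cd68* passed with voomWithQualityWeights (adjusted p = 0.0199), without mice FAD_ABX_1151 and FAD_ABX_1482 (adjusted p = 0.0462, edgeR) and with mouse FAD_GF_201 as a WT mouse (adjusted p = 0.0179, edgeR).

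Ordered by group mean, the receptors fell into different sequences. *Cd68* and *Scarb1* shared the upper end, with SPF, ABX and GF 5xFAD mice in rising order above the WT groups. For *Cd68* the step from GF WT (1103 ± 92.3 CPM, SD, n = 4) to SPF 5xFAD mice was larger than the spread of either group and without overlap, while SPF and ABX 5xFAD mice differed by less than their spread. For *Scarb1* the step without overlap lay between ABX WT and GF WT mice, and GF WT and SPF 5xFAD mice (95.6 and 100.8 CPM) differed by less than their spread. *Msr1* stepped from ABX WT (2.91 ± 1.30 CPM, SD, n = 5) to SPF 5xFAD mice without overlap, and neighbours among its 5xFAD groups (SPF, GF and ABX in rising order) did not differ beyond their spread. *Cd36* rose from SPF WT over ABX WT, GF WT, SPF 5xFAD and GF 5xFAD to ABX 5xFAD mice, with overlap between all neighbours. *Stab1* was lowest in GF 5xFAD and highest in GF WT mice, and the step from SPF WT to GF WT mice was without overlap. *Lrp1* had ABX WT mice at the bottom (924.8 ± 161 CPM, SD, n = 5) and 5 groups between 1143 and 1239 CPM that differed by less than their spread.

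For the 4 receptors with a mean of at least 3 log2 CPM, the 3 genes with the most similar profile over the 28 mice were drawn from 8930 genes by Pearson correlation of log2 CPM. These values describe the same libraries, which share their differences between groups, and were selected as the highest. They were not corrected for the dependence of expression on gene length, which also varied within groups. At the length of *Lrp1* it ran from -0.24 to 0.32 on the log2 scale among ABX 5xFAD mice. Its part in the correlations was not tested. *Cd68* ran closest to *Ctsz* (cathepsin Z), *Syngr1* and *Trem2* (a microglial lipid receptor), with r of 0.99, 0.99 and 0.98, and r of 0.92, 0.92 and 0.91 after subtraction of the group means. *Scarb1* ran closest to *Tecpr1*, *Lrpap1* and *Nucb1* (r of 0.95 each, and 0.76, 0.74 and 0.77 within groups). *Lrpap1* encodes a chaperone of LDL receptor relatives. *Stab1* ran closest to the kinase gene *Abl1* (0.93, and 0.90 within groups), *Foxj2* (0.87 and 0.84) and *Arhgef40* (0.85 and 0.88), and *Lrp1* to *Myo18a* (0.85 and 0.86), *Pcnx3* (0.83 and 0.76) and the myosin heavy chain gene *Myh9* (0.80 and 0.73).

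Of 19 other scavenger receptors, 12 passed the filter on low counts. *Marco*, *Scara3*, *Scara5*, *Cd6*, *Stab2*, *Megf10* and *Lrp2* did not, and none of them exceeded 0.543 CPM in a mouse. Among the 12, 6 rose in SPF, 6 in GF and 8 in ABX 5xFAD mice against WT mice, and none fell, where 4.57%, 15.6% and 14.4% of all genes changed in either direction. Their median log2 fold change was 1.33, 0.84 and 2.22. The same genes were called with RLE factors, with library size as scaling, with DESeq2, with voomWithQualityWeights, without the filter and with gene length offsets.

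*Clec7a*, the β-glucan receptor Dectin-1 and a known marker of plaque-associated microglia, had the smallest p-values of the list. It lay between 18.2 and 37.8 CPM in all WT mice and between 269 and 544 CPM in all 5xFAD mice, with log2 fold changes of 3.76, 4.11 and 3.38 in SPF, GF and ABX mice (adjusted p = 1.31e-13, 5.81e-14 and 1.72e-13, edgeR). *Cd5* rose from at most 1.77 CPM in WT to at least 2.93 CPM in 5xFAD mice, with log2 fold changes of 3.14, 3.93 and 2.64. *Cd44*, the hyaluronan receptor, rose by 3.00, 2.95 and 2.31 and *Cxcl16*, a membrane-bound chemokine that binds oxidized LDL, by 0.82, 1.13 and 0.92 on the log2 scale, all with an adjusted p of at most 0.0154 (edgeR). These 4 genes were called in every condition. *Scarb2*, a lysosomal relative of *Cd36* and *Scarb1*, rose in GF mice (0.54, adjusted p = 9.39e-05, edgeR), and *Scarf2* rose in ABX mice (0.75, adjusted p = 0.00838, edgeR). *Ager*, *Olr1* and *Scarf1* passed in none of these comparisons.

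*Colec12*, *Cd163* and *Mrc1* were absent or low in SPF and ABX WT mice. *Colec12*, a collectin, was at 0 in 4 of 5 SPF WT and all 5 ABX WT mice and between 2.48 and 9.94 CPM in ABX 5xFAD mice, at least 176-fold above the level of 3 counts over the ABX WT group. It was also called in SPF (adjusted p = 0.000221, edgeR) and GF mice (log2 fold change 2.56, adjusted p = 0.0142, edgeR). *Cd163*, the haemoglobin scavenger receptor, was at 0 in all SPF and ABX WT mice. Its mean in SPF 5xFAD mice was at least 118-fold above the level of 3 counts over the SPF WT group. In ABX 5xFAD mice it was at least 755-fold above that level over the ABX WT group. *Mrc1*, the mannose receptor, rose in ABX mice from between 3.21 and 5.17 to between 13.6 and 97.0 CPM (log2 fold change 3.53, adjusted p = 5.42e-06, edgeR). *Cd163* and *Mrc1* are also among the 9 macrophage markers, and the part of macrophages in these 3 genes was not tested.

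Within 5xFAD mice, *Cxcl16* was the 1 gene of this list called between GF and SPF animals (log2 fold change 0.49, adjusted p = 0.0344, edgeR), 1 of 12 where 12.8% of all genes changed, and it was lost with gene length offsets, with library size as scaling and without the filter. DESeq2 called *Cxcl16* and *Scarf2* there, and voomWithQualityWeights these 2 genes, *Cd5* and *Clec7a*, all higher in GF animals. None of the 12 was called between ABX and SPF 5xFAD mice by edgeR, with 4 under an unadjusted p of 0.05, while DESeq2 called *Mrc1* and voomWithQualityWeights *Cd163*, *Colec12* and *Mrc1*. Against GF 5xFAD mice, ABX 5xFAD mice had more *Mrc1* (2.16, adjusted p = 0.00351, edgeR) and less *Scarb2* (-0.29, adjusted p = 0.0226, edgeR) and *Clec7a* (-0.55, adjusted p = 0.0306, edgeR), 3 of 12 where 10.6% of all genes changed. Both of the lower calls were lost with library size as scaling, that of *Scarb2* also without the filter and that of *Clec7a* also with gene length offsets. With voomWithQualityWeights 6 of 12 were called, *Cd163* (higher), *Cd5* and *Cxcl16* (lower) in addition, and *Cd163* was also called without the filter. The genotype effect differed between ABX and GF mice for *Mrc1*, *Cd163*, *Colec12* and *Scarb2*, 4 of 12 where 1.76% of all genes did. *Scarb2* was lost there with library size as scaling, with voomWithQualityWeights and without the filter, and *Colec12* with voomWithQualityWeights.

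**Figure D4:**
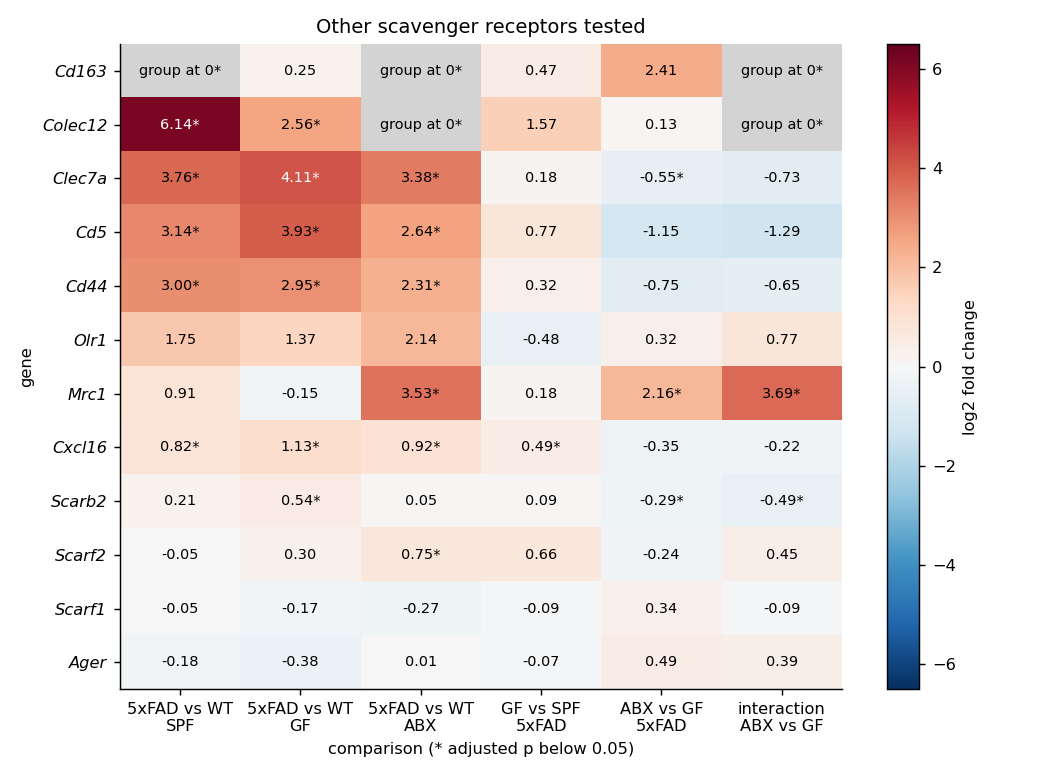
Log2 fold changes of the 12 tested other scavenger receptors (vertical axis) in 6 comparisons (horizontal axis), from edgeR, with red for higher and blue for lower values and a star for an adjusted p below 0.05. Grey cells mark fits against a group in which all mice were at 0, where no fold is given. *Clec7a*, *Cd5*, *Cd44* and *Cxcl16* carry stars in all 3 genotype comparisons.

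Relatives, ligands and regulators of the receptors were taken from fixed lists. Genes that appear here by name because they make up a small count, without belonging to the 4 smallest p-values of their list, were named after their values were seen. Among relatives of *Lrp1*, 3 genes are described by their values. *Sorl1*, a sorting receptor for APP, rose in SPF, GF and ABX 5xFAD mice against WT mice by 0.66, 0.61 and 1.04 on the log2 scale (adjusted p = 0.0255, 0.0122 and 1.67e-05, edgeR). *Lrp10* had log2 fold changes of 0.15, 0.21 and 0.43, of which the last passed (adjusted p = 0.00371, edgeR). *Lrp6*, a Wnt coreceptor, did not differ by genotype beyond the threshold and was lower in GF than in SPF 5xFAD mice (-0.68, adjusted p = 0.0178, edgeR), which was lost with gene length offsets.

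Ligands and partners were listed with 12 genes, of which 9 were tested. In SPF 5xFAD mice 4 rose (*Lpl*, *Apoe*, *Lrpap1*, *Fyn*), in GF mice 5 rose (with *Calr*) and in ABX mice 6 (with *Thbs1*), and *Lyn* fell in GF and ABX mice, beside 4.57%, 15.6% and 14.4% of all genes. The *Lyn* call in ABX mice was lost without the filter. *Lpl*, which releases fatty acids from lipoproteins, rose from between 23.9 and 78.4 CPM in WT to between 368 and 1008 CPM in 5xFAD mice, with log2 fold changes of 3.98, 3.99 and 3.89 (adjusted p = 2.38e-12, 4.86e-12 and 7.26e-13, edgeR). *Apoe*, a ligand of *Lrp1*, rose by 3.36, 3.53 and 3.67 (adjusted p = 6.46e-11, 3.1e-11 and 1.86e-12, edgeR). Among 5xFAD mice it was also higher under GF than under SPF housing, by 1.08 (adjusted p = 0.00731, edgeR). *Lrpap1*, the chaperone that keeps ligands off *Lrp1* during its synthesis, rose by 0.60, 0.96 and 0.90 (adjusted p = 0.00182, 5.09e-07 and 3.35e-07, edgeR). *Calr*, an endoplasmic reticulum chaperone that can sit at the surface with *Lrp1*, had 0.14, 0.41 and 0.21 (adjusted p = 0.284, 4.51e-06 and 0.00487, edgeR), and its call in ABX mice was lost with library size as scaling and without the filter.

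Of 7 regulators known for *Cd36*, *Scarb1* or lysosomal genes, edgeR called 0 in SPF and 0 in GF mice by genotype, with 0 under an unadjusted p of 0.05 in both, and 2 in ABX mice, beside 4.57%, 15.6% and 14.4% of all genes. DESeq2 called 0 in SPF and GF mice, and voomWithQualityWeights called *Pparg* in SPF mice. *Nr1h2*, a liver X receptor, rose in ABX mice by 0.51 (adjusted p = 0.0111, edgeR) and among 5xFAD mice was higher under GF than under SPF housing by 0.56 (adjusted p = 0.0261, edgeR), a call that was lost with library size as scaling and with gene length offsets. *Pparg*, a nuclear receptor that drives *Cd36* in macrophages, was at 0 in all ABX WT mice and in 3 of 6 ABX 5xFAD mice, and averaged 0.362 CPM in the latter group, at least 11.9-fold above the floor of 3 counts over the group (adjusted p = 0.0336, edgeR). This call was lost with DESeq2 and with voomWithQualityWeights, and *Pparg* stayed under 1 CPM in every mouse. *Nfe2l2*, a stress response factor, had a log2 fold change of 0.13 in ABX mice with an adjusted p of 0.343 (edgeR).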

How the data were processed

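RNA of FACS-isolated hippocampal microglia was sequenced in 28 mice, with 50-cycle single reads and 1 library per mouse. Reads were aligned with STAR 2.7.2 and counted with featureCounts 1.6.2 per the labels, and the deposited table holds raw counts for every gene, as the authors made it. The authors name GRCm38 as the genome. The submitters' processing notes name GRCh38.p12, but the coordinates in the table are those of mouse GRCm38, and all 6 receptors have the bounds of GENCODE M21. Of the 48587 gene symbols, 46484 are names in that annotation. The 92 spike-in entries, with at most 12 reads in a library (6.41e-05 percent), were left out. All per-sample columns were used.

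Groups were taken from the labels. Counts were tested in R 4.3.3 with edgeR 4.0.16 (quasi-likelihood test, TMM scaling, genes kept by filterByExpr at a count of 10 and a total of 15 reads or more) in 1 model of all 28 mice with 1 term per group. P-values were adjusted by the Benjamini-Hochberg method across the 15298 genes tested, with a threshold of 0.05. TMM also scaled the CPM values, apart from marker list sums, which refer to library totals, and correlations used log2 CPM with a prior count of 2. Depth set a floor of 3 counts for genes at 0, and for the other receptors the spread between mice limited the precision.

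Alternatives were RLE factors, library size alone, no filter, at least 10 counts in every library, DESeq2 1.42.0, voomWithQualityWeights of limma 3.58.1, only the groups compared, 26 mice without FAD_ABX_1151 and FAD_ABX_1482, mouse FAD_GF_201 as a WT mouse, an adjusted p under 0.01, leaving out each mouse in turn, and exact two-sided permutation tests of log2 CPM for single receptors. Gene length offsets (a lowess curve of expression on exon length per library, span 0.5) were added after the values were seen. The procedure was tested on simulated data. Named were the 6 receptors, called genes of the other scavenger receptors and up to 4 more, the 4 genes with the smallest F test p of each further list, and 3 similar genes per receptor with a mean of at least 3 log2 CPM. Some genes of the further lists, and counts over the relatives of *Lrp1*, are not reported here. The receptors and lists were chosen with earlier results of these data known. Promoter sequences are from RefSeq, where 4 of the 6 receptors had an entry. Plots were made in Python 3.11.15 (matplotlib 3.10.9).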

Additional observations from a re-analysis of the deposited data

Results flagged for a closer look

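Among 30 groups of 4 to 10 mice (6 receptors in 5 groups), 3 held a mouse that stood apart from the rest of its group by Dixon's test at the 95% level, which chance alone gives in about 5% of groups. *Cd36* was at 1.43 CPM in mouse WT_ABX_909, where the other 4 mice of the group were at 0, so that any reads in the fifth mouse would have met this test and the group says nothing against the chance rate. *Stab1* was at 438 CPM in mouse WT_SPF_912, below the other 4 mice at 550.5 to 598 CPM, and *Lrp1* was at 854 CPM in mouse FAD_ABX_1455, below the other 5 mice at 1129.7 to 1317 CPM. Mouse WT_ABX_909 decides the size of the *Cd36* difference in ABX mice, as given above.

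The genotype effect differed between ABX and GF mice in 1 of the 6 receptors and in 4 of 12 other scavenger receptors by the interaction term of the edgeR fit, where 1.76% of all genes differed. *Stab1* had a difference of 1.11 on the log2 scale (adjusted p = 0.0112), with 5xFAD mice lower than WT mice under GF conditions and not under ABX. *Scarb2* had a difference of -0.49 (adjusted p = 0.0419), lost with library size as scaling, with voomWithQualityWeights and without the filter, and *Mrc1* of 3.69 (adjusted p = 0.00685). The fitted values of *Colec12* (7.21, adjusted p = 0.0152) and *Cd163* (11.62, adjusted p = 0.00691) rest on ABX WT mice that were all at 0, so that their size depends on the prior count of the fit and is no bound, and *Colec12* was lost with voomWithQualityWeights.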

How the results depend on the processing

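Of 72 results for single receptors (6 genes in 12 comparisons), 21 passed the threshold. None of these changed direction in any alternative, and 14 kept their call in every fit at a threshold of 0.05. Over 2849 recomputed values, 2707 kept direction and side of the threshold, 61 lost the call, 36 gained it (13 of them by the exact permutation p, which is not adjusted over all genes) and 45 changed direction, all of the last for differences that had not passed.

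Counts of receptors called moved by more than 1.5 times as follows, and smaller moves are left out. With voomWithQualityWeights 1 was called for ABX against SPF 5xFAD, 2 for GF against SPF WT, 5 for ABX against GF WT and 2 for the interaction of ABX against GF. With the compared groups fitted alone, 0 were called for ABX against GF 5xFAD and 3 for GF against SPF WT. With mouse FAD_GF_201 as a WT mouse, 3 were called for GF against SPF WT and 4 for ABX against GF WT. At an adjusted p under 0.01, 1 was called for ABX against GF 5xFAD, 1 for ABX against GF WT and 0 for the interaction of ABX against GF. With gene length offsets, 1 was called for GF against SPF 5xFAD and 1 for ABX against GF 5xFAD. Leaving out each mouse in turn (28 fits) gave 1 to 3 for ABX against GF WT, and 1 to 2 for GF against SPF WT, for the interaction of ABX against GF, for GF against SPF 5xFAD and for ABX against GF 5xFAD. The cause of these changes was not tested, beyond the fewer mice or genes that a setting leaves.

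Differences that changed direction had log2 fold changes close to 0 or large errors. For *Lrp1* these were -0.0075 in SPF mice by genotype (library size alone), -0.0556 for ABX against GF 5xFAD (26 mice), 0.0556 in GF mice by genotype, -0.033 for ABX against GF 5xFAD and 0.0183 for the GF against SPF interaction (mouse FAD_GF_201 as WT). With gene length offsets *Lrp1* had 0.14 in GF mice by genotype, 0.29 for GF against SPF 5xFAD, 0.10 for ABX against SPF 5xFAD, -0.19 for ABX against GF 5xFAD, 0.18 for GF against SPF WT and 0.11 for the GF against SPF interaction. With the same offsets *Stab1* had 0.0545 for GF against SPF 5xFAD, and *Cd68* had -0.0027 for ABX against SPF 5xFAD and 0.0865 for the ABX against GF interaction. *Msr1* had -0.17 for GF against SPF 5xFAD (voomWithQualityWeights) and -0.049 (mean log2 CPM of the permutation test), and -0.16, -0.30 and -0.0127 for ABX against GF WT (voomWithQualityWeights, mouse FAD_GF_201 as WT and permutation test). *Cd36* had -1.06 and -0.35 for ABX against SPF WT (voomWithQualityWeights and permutation test).

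Over the 28 fits without 1 mouse, *Lrp1* ranged from -0.0585 to 0.18 in SPF mice and from -0.13 to 0.0052 in GF mice by genotype, from -0.0841 to 0.036 for GF against SPF WT, from -0.22 to 0.0145 for ABX against SPF 5xFAD and from -0.0333 to 0.10 for ABX against GF 5xFAD. *Msr1* ranged from -0.11 to 0.50 for GF against SPF 5xFAD and for the ABX against GF interaction, from -0.0132 to 0.60 for ABX against GF 5xFAD and from -0.0642 to 0.29 for ABX against GF WT. *Scarb1* ranged from -0.0274 to 0.13 for ABX against SPF WT, and *Stab1* from -0.0006 to 0.46 for ABX against SPF 5xFAD. *Cd36* ranged from -5.22 to 1.30 for ABX against SPF WT, and its low end is the fit without mouse WT_ABX_909, where all ABX WT mice are at 0 and the value is no bound.

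Counts over all genes also depended on the tool. By genotype in SPF mice 699 genes became 2154 with voomWithQualityWeights and 1340 with the groups fitted alone, and in ABX mice 2207 became 1321 with the groups fitted alone. For GF against SPF 5xFAD 1962 became 3872 with voomWithQualityWeights and 1242 with gene length offsets, and for ABX against GF 5xFAD 1621 became 251 with the groups fitted alone. For GF against SPF WT 248 became 707 with DESeq2, 1631 with voomWithQualityWeights, 1286 with the groups fitted alone, 659 without mice FAD_ABX_1151 and FAD_ABX_1482 and 716 with mouse FAD_GF_201 as WT. For ABX against GF WT 1053 became 1606 with DESeq2, 2025 with voomWithQualityWeights and 1672 with mouse FAD_GF_201 as WT, and for the ABX against GF interaction 269 became 576 with DESeq2 and 67 with the groups fitted alone. The F test called 5079 genes and 7868 with voomWithQualityWeights. Without mice FAD_ABX_1151 and FAD_ABX_1482, 36 genes were called for ABX against SPF 5xFAD.

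No paired analysis was possible because the replicate numbers are mouse numbers that no groups share. With no mouse above 18.5 CPM, *Msr1* and *Cd36* are the receptors that depth and the spread between mice limit most.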
